A study of Mus musculus with 4 samples.

Results

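The bone morphogenetic protein (BMP) ligands, receptors and antagonists were followed here in mouse cells described as mesangial and treated with the cytokine TGF-beta1. TGF-beta1 is transforming growth factor beta 1. The group comprised 10 genes: the ligands Bmp2, Bmp4 and Bmp7, the receptors Bmpr1a and Bmpr2, the secreted antagonists Grem1, Nog, Sostdc1 and Chrdl1, and the membrane inhibitor Bambi. Every probe set (the group of oligonucleotides that reports 1 transcript) annotated with exactly 1 of these symbols was taken, which gave 23 probe sets among 34945 with a single gene symbol, and 10 of 18193 genes. The arrays were 2 labelled with TGF-beta1 and 2 labelled low glucose, all of total RNA from cells described as mesangial. The sources used here do not give strain, genotype, passage, glucose levels, TGF-beta1 dose or times. Since the glucose of the TGF-beta1 arrays is unstated, an effect of TGF-beta1 and a difference in glucose cannot be told apart. Nothing in the labels ties the arrays to separate cultures, and the spread behind the p-values may thus be technical. As given below, it is a spread within array pairs that is shared among probe sets.

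BMPs are secreted dimers of the TGF-beta superfamily. They bring together type I receptors such as Bmpr1a and type II receptors such as Bmpr2, whose kinases activate SMAD1, SMAD5 and SMAD9 and so induce the Id genes, whereas TGF-beta itself acts mainly through SMAD2 and SMAD3. Antagonists such as noggin (Nog), gremlin (Grem1), chordin-like 1 (Chrdl1) and Sostdc1 bind the ligands outside the cell. In the kidney, BMP7 is required for nephron formation and opposes fibrotic responses to TGF-beta in animal models, and Sostdc1 is a tubular protein known as a BMP7 antagonist.

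Both probe sets of Sostdc1 and the 2 dimmer of 3 of Bmp7 were lower on the TGF-beta1 arrays, and no member was called higher. Of the 23 probe sets, 13 from 6 genes were bright enough to be tested; 4 of the 13 fell, 0 rose and 9 did not pass. Of all 27022 tested probe sets 8.91% fell and 6.94% rose, 15.9% in either direction. The 4 that fell were both probe sets of Sostdc1 and 2 of the 3 of Bmp7. The brightest of Bmp7, 1435479_at, did not pass. Bmp7 1432410_a_at, 1 of the 4, was bright enough to be tested through its low glucose mean only. The median difference of the 13 was -0.13, against 0.00 over all tested probe sets. On 4 of the 13, Bmp7 1432410_a_at again among them, both TGF-beta1 arrays lay below both low glucose arrays after normalisation (10.2% of all tested probe sets). These are not the same 4 as those that fell. Bmpr1a 1425491_at, which did not pass, was among them, and Sostdc1 1460250_at, which fell, was not. On 0 of the 13 both TGF-beta1 arrays lay above both low glucose arrays (9.53%). The members were chosen with earlier results of these arrays known, so these counts describe them and are no independent test.

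Each difference is TGF-beta1 minus low glucose in log2 units, from intensities that had 46.88 added and were quantile normalised, and it understates the change of dim genes. A value after ± is the standard error of the limma fit with n = 2 arrays per group, and "fell" or "rose" means a Benjamini-Hochberg adjusted p under 0.05 in that fit. Array pairs, each with 1 array of either group, were apparent: TGF-beta1 replicate 2 with low glucose replicate 1 (array pair 1, r = 0.994 across probe sets) and TGF-beta1 replicate 1 with low glucose replicate 2 (array pair 2, r = 0.992). Arrays of the same group correlated at 0.97 for TGF-beta1 and 0.971 for low glucose. The pairs were made from 18 probe sets of hybridisation spike-ins, and the pair was a block in the fit. Without the block limma called 0 of 27022 probe sets at an adjusted p under 0.05, and 441 (1.63%) had an unadjusted p under 0.05. With 2 arrays against 2, an exact two-sided permutation test of a single probe set cannot go below p = 0.333. Every call below therefore rests on the block and on a spread shared among probe sets of like brightness. When that sharing was limited to the 2.68 prior degrees of freedom of the fit without the block, limma again called 0. Leaving out any 1 array also removes the block, and limma then called 0 to 1 member probe sets and 0 on the pathway lists.

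The ligand Bmp7 had 3 probe sets, and they did not behave alike. On 1418910_at its intensity was 94.6 and 90.6 on the TGF-beta1 arrays, against 138 and 130 on the low glucose arrays. All TGF-beta1 values lay below all low glucose values. The fall was -0.39 ± 0.067, 1.31-fold, with -0.44 within array pair 1 and -0.33 within array pair 2 (adjusted p = 3.57e-07 with limma and the block, 0.217 with the limited sharing and 1 without the block). With 1 array left out it lay between -0.51 and -0.26 and did not pass. On 1432410_a_at the intensities were 60.2 and 70.4 with TGF-beta1, against 92.1 and 72.1 in low glucose, and after normalisation the groups again did not overlap. Its fall was -0.22 ± 0.079 (adjusted p = 0.0365 with limma), and with the deposited scaling it missed the threshold (adjusted p = 0.0537 with limma; 0.0227 to 1 over its 9 alternatives). This probe set stood above the filter on low values through its low glucose mean only. On the remaining 1435479_at, the brightest of the 3, the values were 95.5 and 155 with TGF-beta1, against 171 and 96.6 in low glucose. There the arrays separated by pair and not by group. The difference on this probe set, -0.08 ± 0.065, did not pass, with a 95% interval from -0.21 to 0.05 in the blocked fit. Its standard error without the block was 0.211, and whether its size differs from that on 1418910_at was not tested.

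Bmp4, the ligand with 1 bright probe set (above 91.1% of all probe sets in mean level), read 778 and 690 on the TGF-beta1 arrays, against 648 and 757 on the low glucose arrays. The groups overlapped, and the difference of 0.06 ± 0.082 did not pass (95% interval -0.10 to 0.22). Bmp2, a ligand closely related to Bmp4, had 1 probe set with 15.2 and 17.7 with TGF-beta1, against 16.8 and 17.8 in low glucose, brighter than only 3.36% of probe sets and so not tested. At that brightness a change in Bmp2 could not be measured here.

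**Figure D1:**
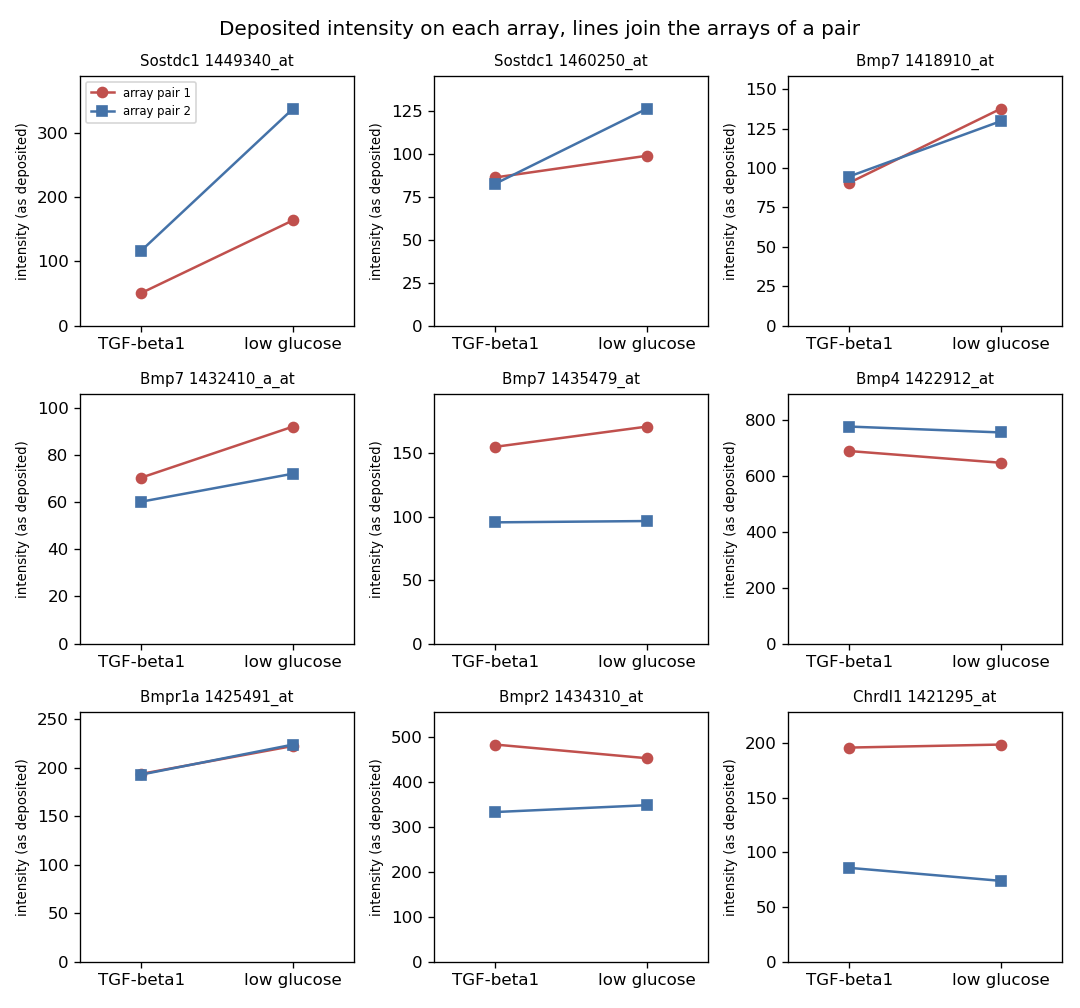
Deposited intensity (vertical axes, linear, from 0) of 9 probe sets on each array, TGF-beta1 left and low glucose right; each point is 1 array and a line joins the arrays of a pair. Sostdc1 1449340_at and Bmp7 1418910_at are lower with TGF-beta1 in both pairs, while for Chrdl1 1421295_at and Bmp7 1435479_at the pairs stand further apart than the groups.

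The type I receptor Bmpr1a had 6 probe sets, of which 4 were tested and none passed, although all 4 differences were negative. The one nearest the threshold, 1425491_at, read 193 and 194 on the TGF-beta1 arrays, against 223 and 224 on the low glucose arrays. The groups did not overlap, the difference was -0.17 ± 0.066 (-0.18 in pair 1 and -0.16 in pair 2) and the adjusted p was 0.0525 with limma. Probe set 1425494_s_at, whose suffix marks possible matches to other transcripts, was at -0.18 ± 0.069 with an adjusted p of 0.0551. Both passed with arrays centred on their medians (adjusted p = 0.0265 and 0.026 with limma) and with the filter at the 60th percentile (0.0449 and 0.0435), and under no other alternative that tested them. The other tested probe sets of Bmpr1a were at -0.13 ± 0.071 and -0.08 ± 0.072. Among those below the filter, 1451729_at was at -0.15 and 1445413_at at 0.03.

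The type II receptor Bmpr2 was measured on 2 bright probe sets and 1 dim one. On 1434310_at it read 333 and 484 with TGF-beta1, against 453 and 349 in low glucose; on 1419616_at it read 129 and 107 with TGF-beta1, against 92.8 and 116 in low glucose. The arrays of pair 1 were the higher in both groups on the first, and those of pair 2 on the second. The differences of 0.02 ± 0.078 and 0.10 ± 0.067 did not pass, with 95% intervals from -0.13 to 0.18 and from -0.03 to 0.23. The dim probe set, 1441652_at, was at -0.08 and was not tested.

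Sostdc1 showed the largest difference of the 10 genes, larger in size than 99.9% of all tested probe sets. Probe set 1449340_at read 117 and 50.7 on the TGF-beta1 arrays, against 164 and 339 on the low glucose arrays. Both TGF-beta1 arrays lay below both low glucose arrays, although the 2 low glucose arrays were themselves apart. Within the pairs the intensity with TGF-beta1 was 0.308 and 0.344 times that in low glucose. The fall was -1.14 ± 0.064 on the log2 scale, 2.20-fold, and nearly equal within the pairs at -1.10 and -1.17. The adjusted p was 1.04e-66 with limma and the block, 0.153 with the limited sharing and 1 without the block. Array pair 2 stood 0.94 above array pair 1 in the level of this probe set, so leaving out an array shifted the value. It was -0.65 with low glucose replicate 2 left out, -0.68 with TGF-beta1 replicate 2 left out and -1.59 with TGF-beta1 replicate 1 left out, and did not pass in these. With low glucose replicate 1 left out it was -1.62 and passed.

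The other Sostdc1 probe set, 1460250_at, read 82.5 and 86.1 with TGF-beta1, against 98.8 and 126 in low glucose. Its groups were apart in deposited intensity but overlapped after normalisation. It fell by 0.29 ± 0.070, with -0.15 in pair 1 and -0.44 in pair 2 (adjusted p = 0.000486 with limma and the block, 0.000246 to 1 over its 9 alternatives). With low glucose replicate 1 left out the value was -0.52, and with low glucose replicate 2 left out -0.07. Both probe sets are annotated to the same transcript record, and the difference in size between them was not tested.

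Chrdl1, a chordin-like BMP binding protein, had 4 probe sets, of which only 1421295_at was tested. It read 85.9 and 196 on the TGF-beta1 arrays, against 199 and 73.9 on the low glucose arrays. The arrays of pair 1 were therefore high and those of pair 2 low, a gap of -0.78 (array pair 2 minus array pair 1), while the group difference was 0.05 ± 0.065 (95% interval -0.08 to 0.17) and did not pass. The 3 dim probe sets lay between -0.03 and 0.03. Over the 13 tested member probe sets, 9 differed by more between the pairs than between the groups, and over all tested probe sets that share was 77.1%.

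Grem1, which antagonises BMP2, BMP4 and BMP7, Nog and Bambi each had 1 probe set, and all 3 were below the filter. Grem1 read 48.9 and 86.5 with TGF-beta1, against 75.7 and 52.3 in low glucose, with a difference of 0.01 and the arrays again ordered by pair. Nog read 56.4 and 60.2 with TGF-beta1, against 51.5 and 40.3 in low glucose; the TGF-beta1 arrays were the higher, at a difference of 0.17 (0.09 and 0.24 within the pairs) that was not tested. With no filter on low values it did not pass (adjusted p = 0.169 with limma and the block). Bambi, a pseudoreceptor without a kinase domain, read 62.7 and 68.2 with TGF-beta1, against 64.6 and 61.8 in low glucose, a difference of 0.00. Together with Bmp2 these made 4 member genes on which no test was made, and their levels are close to or under the array medians of 78.3 to 99.6.

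**Figure D2:**
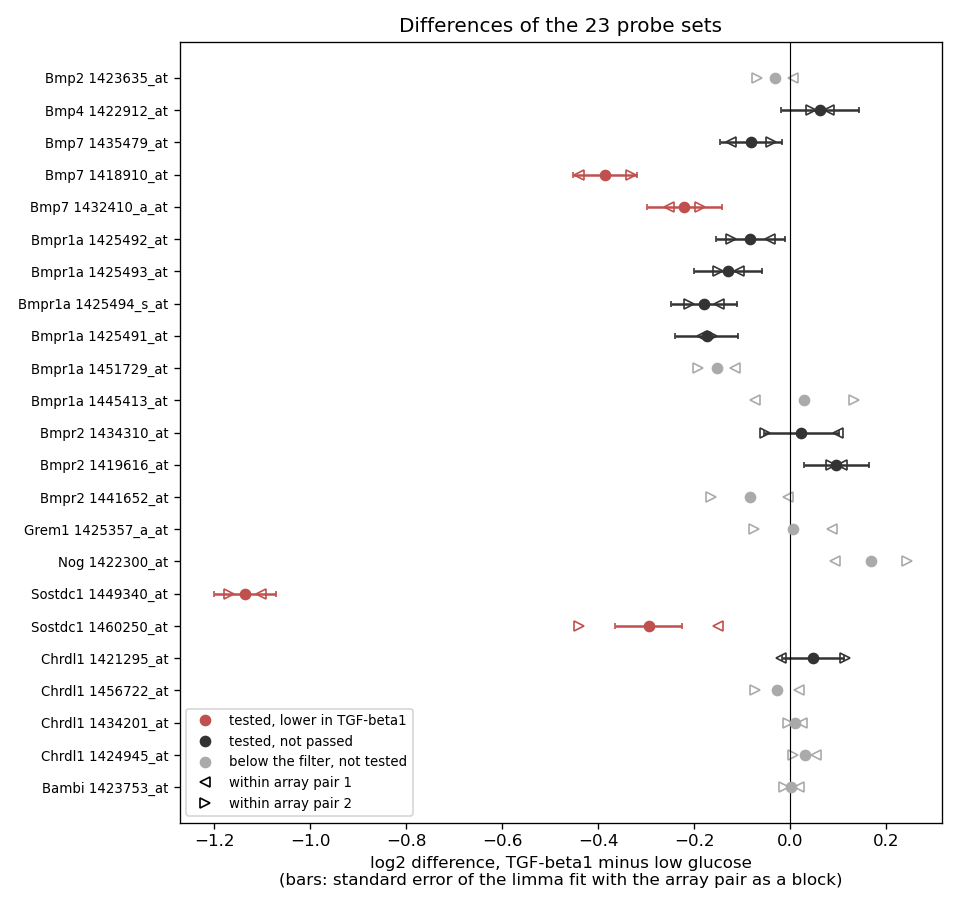
Log2 difference, TGF-beta1 minus low glucose, of each of the 23 probe sets (filled points), with the difference within array pair 1 and 2 (open triangles) and the standard error of the blocked limma fit (bars, tested probe sets only). The bars give a spread shared among probe sets of like brightness and not the own spread of each probe set. The 4 red points, 2 of Sostdc1 and 2 of Bmp7, are those that fell, and 10 grey points were too dim to be tested.

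**Figure D3:**
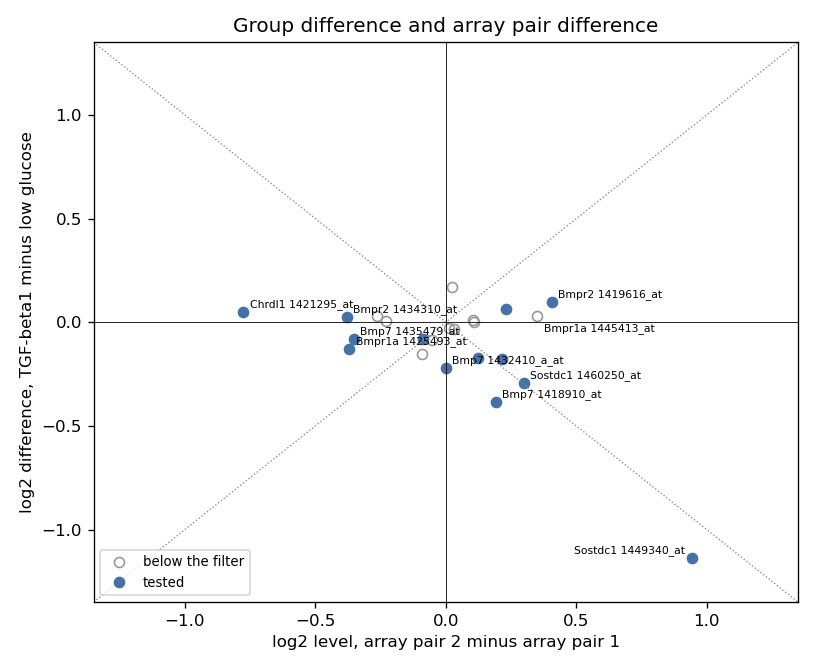
Each point is 1 probe set of the 10 genes, placed by the log2 gap between the array pairs (horizontal, pair 2 minus pair 1) and the log2 difference between TGF-beta1 and low glucose (vertical). On the dotted diagonals both are of equal size: Chrdl1 1421295_at lies far out along the pair axis at -0.78, and Sostdc1 1449340_at is at -1.14 on the group axis and 0.94 on the pair axis.

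The rest of the BMP pathway was described through 5 lists by role, with 77 of 109 probe sets bright enough to be tested. Of these 28 passed, 19 higher and 9 lower. The 19 include rises of Skil and Smad7, which also serve below as controls of TGF-beta response. Over all 27022 tested probe sets 15.9% passed, 6.94% higher and 8.91% lower. A list count near these shares is no result about the list. Among other BMP and GDF ligands 1 of 6 tested probe sets rose and 1 fell. Bmp6, a ligand of the same subgroup as Bmp7, read 214 and 240 with TGF-beta1, against 310 and 263 in low glucose, and fell by 0.28 ± 0.069. The probe set of Gdf2 rose by 0.19, with overlapping groups. It was not called with no filter, with arrays centred on their medians or without the intensity trend. The median of this list was 0.10.

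Among other receptors and co-receptors 4 of 21 tested probe sets rose and 2 fell, with a median of 0.03. The type I receptor Acvr1 rose on 1448460_at (0.64) and on 1416786_at (0.37), and was at 0.11 on its remaining probe set, which did not pass. The BMP co-receptor Rgmb rose on 1428429_at by 0.26, while its 2 other tested probe sets did not pass, at 0.15 and -0.06. Acvr2a, a type II receptor shared by activins and BMPs, was lower on 1437382_at at -0.28 but at 0.04 on 1451004_at, and Tgfbr3 fell by 0.65 on 1433795_at and was at -0.14 on 1425620_at, which did not pass. Eng rose on 1417271_a_at by 0.24, with overlapping groups, and was at 0.04 on 1432176_a_at, which did not pass. Among other extracellular binding proteins and proteases 3 of 15 rose and 1 fell. Both probe sets of Fst, the activin-binding follistatin, rose, at 0.98 and 0.94. Bmp1, a procollagen protease, rose by 0.21 on 1 of 2 tested, and Fstl3 fell by 0.25. After normalisation the groups overlapped on the called probe sets of Bmp1 and Fstl3. The Bmp1 call was lost with the floor, with arrays centred on their medians and with no filter.

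Of the signal transducers and their inhibitors 11 of 24 tested probe sets rose and 0 fell, with a median of 0.15. Skil rose by 0.64 and 0.61 and Smad7, the inhibitory SMAD, by 0.50 and 0.41, the last with overlapping groups. Skil and Smad7 are also on the list of TGF-beta response controls given below. The remaining 7 of the 11 were named after their values were seen. Smad1, the BMP-activated transducer, rose on all 3 of its probe sets, at 0.35, 0.25 and 0.24. Only on 1448208_at did the groups not overlap (432 and 463 with TGF-beta1, against 353 and 331 in low glucose). Smad5 rose on 1 of 3, at 0.20, with -0.03 and 0.00 on the others. The ubiquitin ligases Smurf1 and Smurf2, which mark receptors and SMADs for breakdown, rose on 2 of 2 and on 1 of 3 probe sets, at 0.20 to 0.21. On Smurf1 1428395_at the groups overlapped. With no filter the Smad5 call and that of Smurf1 1428395_at were lost, the Smurf1 call also with arrays centred on their medians. Smad6 (0.02) and Smad9 (0.01) did not pass.

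Of the BMP target genes 5 of 13 tested probe sets fell and 0 rose, with a median of 0.01, and all 5 belonged to the Id genes. Id3 read 290 and 266 with TGF-beta1, against 611 and 580 in low glucose, and its difference was -0.99. Id2 was at -0.75 and -0.71 and Id1 at -0.43. A further Id2 probe set, 1453596_at, was below the filter and at -0.03. Id4 fell by 0.25 on the 1 probe set above the filter, which stood above it through its low glucose mean only. Of its other 2, 1423259_at read 31.8 and 23.3 with TGF-beta1, against 91.1 and 105 in low glucose, a difference of -0.98 that the filter on the mean of all arrays kept out of the test. The targets Msx1, Msx2, Hey1, Atoh8 and Dlx5 did not pass, at -0.06 to 0.13.

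**Figure D4:**
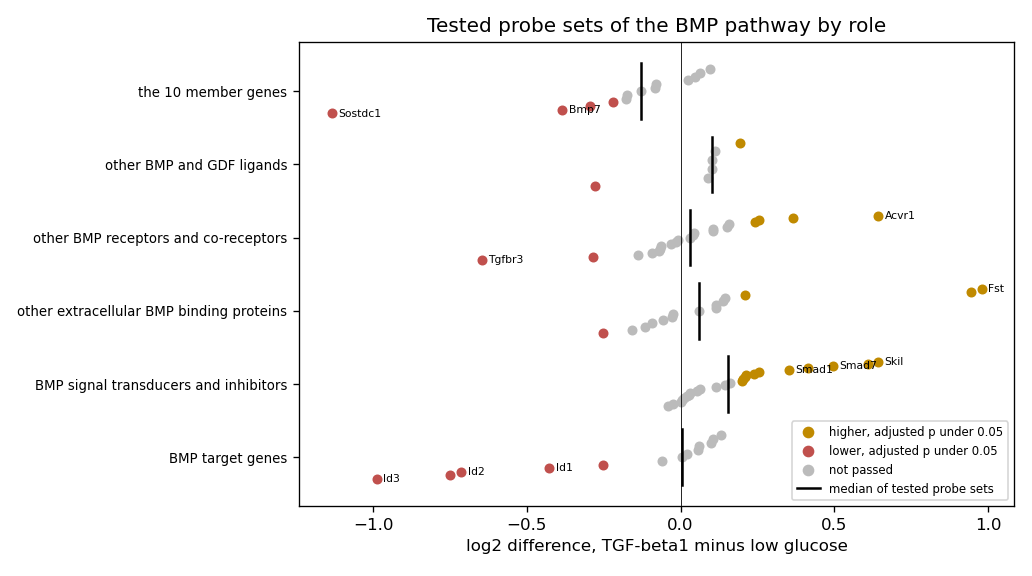
Log2 difference, TGF-beta1 minus low glucose, of the tested probe sets of the 10 genes and of 5 further lists by role; each point is 1 probe set, coloured by its call, and the black line is the list's median. Transducers and inhibitors hold 11 higher and 0 lower points, and BMP target genes 5 lower and 0 higher ones, all of Id genes. Over all tested probe sets 6.94% rose and 8.91% fell.

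Promoter windows from 250 bases before to 50 bases after the transcription start are shown for Id3, the target that fell most among the tested ones, and for 3 members with a tested probe set, none of which passed. The promoter table used here (from RefSeq, GRCm38.p6) listed 4 of the 10 members, and promoters of Sostdc1 and Bmp7 are not shown. Capitals mark GTCT, the short SMAD-binding sequence, on either strand (AGAC), and GGCGCC, the GC-rich sequence bound by BMP-activated SMADs, which reads the same on both strands. A match of one motif cannot overlap a match of the other.
Id3, chr4:136143572-136143871, plus strand: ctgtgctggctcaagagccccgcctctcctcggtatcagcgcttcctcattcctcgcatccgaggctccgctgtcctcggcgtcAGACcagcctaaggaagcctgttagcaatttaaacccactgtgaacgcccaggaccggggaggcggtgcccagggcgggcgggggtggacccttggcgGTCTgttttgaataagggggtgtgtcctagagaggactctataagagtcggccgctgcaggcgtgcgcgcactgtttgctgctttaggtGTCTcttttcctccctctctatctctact
Bmp4, chr14:46390620-46390919, minus strand: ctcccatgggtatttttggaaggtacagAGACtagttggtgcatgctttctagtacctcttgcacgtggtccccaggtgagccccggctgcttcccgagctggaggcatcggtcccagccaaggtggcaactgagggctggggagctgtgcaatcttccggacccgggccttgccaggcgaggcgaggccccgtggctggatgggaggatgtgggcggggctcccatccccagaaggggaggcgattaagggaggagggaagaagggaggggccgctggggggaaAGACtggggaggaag
Bmpr1a, chr14:34502497-34502796, minus strand: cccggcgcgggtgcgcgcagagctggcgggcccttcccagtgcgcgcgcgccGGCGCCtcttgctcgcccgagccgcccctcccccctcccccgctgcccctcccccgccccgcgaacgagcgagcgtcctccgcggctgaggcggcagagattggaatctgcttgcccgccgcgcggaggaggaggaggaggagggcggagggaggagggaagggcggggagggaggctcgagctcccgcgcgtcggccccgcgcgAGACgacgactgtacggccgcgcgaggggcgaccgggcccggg
Bmpr2, chr1:59764029-59764328, plus strand: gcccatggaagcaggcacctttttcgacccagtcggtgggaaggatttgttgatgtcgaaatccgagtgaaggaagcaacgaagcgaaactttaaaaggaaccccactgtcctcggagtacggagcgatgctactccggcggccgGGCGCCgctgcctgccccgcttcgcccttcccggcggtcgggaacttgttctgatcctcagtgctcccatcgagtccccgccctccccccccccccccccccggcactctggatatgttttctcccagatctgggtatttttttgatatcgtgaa
The GTCT motif occurred 3 times in the Id3 window, 2 times in that of Bmp4, 1 time in that of Bmpr1a and 0 times in that of Bmpr2, and at least once in 88% of 32851 windows of this length. GGCGCC occurred 1 time each in Bmpr1a and Bmpr2 and 0 times in Id3 and Bmp4, against 11.9% of windows with a match. These are matches of letters in the windows, and the arrays measured no binding.

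Cell type markers were read beside these results. Over all tested probe sets 6.94% rose and 8.91% fell, and the short lists here hold few probe sets to set against that. The mesangial list had 9 of 14 probe sets tested: Tagln and Acta2 each rose on 1, and the other 7 did not pass. Pdgfrb, a defining mesangial receptor, read 114 and 82.1 on its 1436970_a_at probe set with TGF-beta1, against 75.0 and 99.7 in low glucose, close to the array medians, and Thy1 and Gata3 were below the filter. Of the markers of renal tubule, where Sostdc1 and Bmp7 are also expressed, 7 of 11 probe sets were above the filter. Cdh16 read 1682 and 1495 with TGF-beta1, against 2014 and 1919 in low glucose. In that list 3 of the 7 fell (Cdh16 by 0.31 and Lrp2 by 0.29 and 0.27), 0 rose, and the summed intensity of its 11 probe sets was 3448 and 3400 with TGF-beta1, against 4223 and 3842 in low glucose, with Cdh16 the largest part of it on every array. The part of tubule cells in the lower Sostdc1 and Bmp7 values was not tested. In bulk RNA fewer cells of a type and less RNA per cell cannot be told apart. Podocyte markers had 1 of 5 tested probe sets higher (Podxl) and 1 lower (Synpo), with sums of 672 and 943 with TGF-beta1, against 891 and 702 in low glucose. Leukocyte markers had 3 of 6 lower, all of Csf1r, with sums of 1991 and 3115 with TGF-beta1, against 3706 and 2513 in low glucose. The endothelial list had 1 tested probe set, which did not pass, and sums of 249 and 321 with TGF-beta1, against 312 and 246 in low glucose. None of the markers was at 0, but neither was the dim Bmp2, so a value above 0 does not show that a cell type was present. The controls of TGF-beta response, which share Skil and Smad7 with the transducer list, rose on 10 of 10 tested probe sets, 1 of them (Fn1 1437218_at) above the filter through its TGF-beta1 mean only, with a median of 0.72 (Pmepa1, a TGF-beta-induced SMAD inhibitor, by 1.29 on its brightest probe set).

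**Figure D5:**
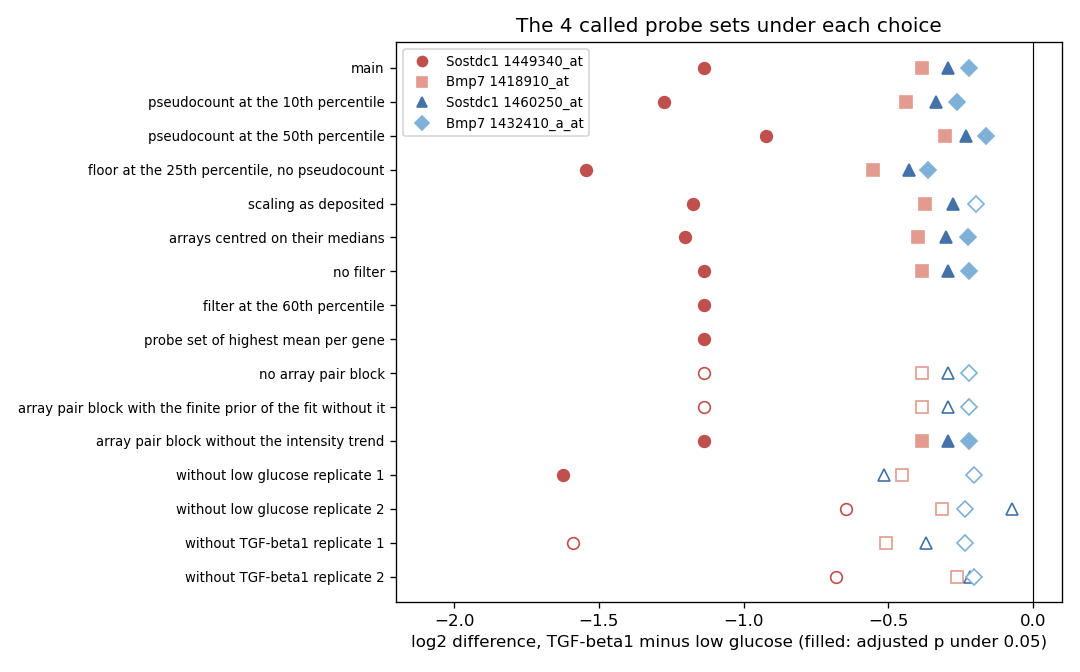
Log2 difference, TGF-beta1 minus low glucose, of the 4 probe sets that fell (symbols), under the reported processing (top row) and each alternative; filled symbols passed an adjusted p of 0.05 with limma. All values are below 0, but changes of filter, of block, of sharing or of trend and the choice of 1 probe set per gene cannot move them. All symbols are open without the array pair block and with the limited sharing of the spread, as is Bmp7 1432410_a_at with the deposited scaling, and with 1 array left out 1 symbol is filled.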

How the data were processed

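The 4 one-colour arrays (2 TGF-beta1, 2 low glucose) were analysed from the value table the authors deposited, with 1 linear intensity per probe set and array. Its probe summary and scaling are not stated in the sources used here. Symbols came from the platform annotation, and all 23 member probe sets matched the RefSeq gene table. The pseudocount was the 25th percentile of all intensities (46.88). Array medians then differed by 0.227, over the limit of 0.1, so arrays were quantile normalised. The test covered 27022 of 45037 probe sets (64 controls left out), those whose mean log2 reached the 40th percentile. It was limma's (3.58.1, R 4.3.3) lmFit and eBayes (with trend, two-sided), adjusted by Benjamini-Hochberg, and array pair was a block. Pairs joined each low glucose array to its nearest TGF-beta1 array over 18 spike-in probe sets (mean absolute log2 difference 0.0449 and 0.0847, at least 0.855 across pairs). With the block there is 1 residual degree of freedom, and the prior is infinite. Named were every member probe set and, of each further list, up to 4 past the threshold of largest size, with others as stated. Members, lists and the array pair block of the fit were chosen with earlier results of these data known, among them that the fit without the block called 0 probe sets. The fit was run on data simulated with the blocked fit's own spread and pair gaps, which cannot test whether that spread is right. Figures were drawn with matplotlib 3.10.9. The number of arrays limits the precision.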

Additional observations from a re-analysis of the deposited data

How the results depend on the processing

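Other pseudocounts, a floor, the deposited scaling, median centring, other filters, 1 probe set per gene, no intensity trend, other treatments of the array pair and leaving out an array were tried. The calls needed both the array pair block and its infinite prior. Without the block, which also makes the prior finite, limma called 0 member probe sets, 0 of the 5 pathway lists and 0 probe sets in all; the blocked fit with the finite prior of the fit without it called 0, 0 and 0. With the probe set of highest mean per gene, which tests fewer probe sets, 1 member (Sostdc1), 18 on the pathway lists and 2503 in all passed. Leaving out 1 array, which allows no block, gave 0 to 1 member probe sets, 0 on the pathway lists and 0 to 16 in all. With arrays centred on their medians 6 member probe sets passed, all lower, and with the filter at the 60th percentile 3. The other processing alternatives moved these counts by at most 1.5 times. The 4 called member probe sets kept a negative sign under every alternative run: Sostdc1 1449340_at ranged from -1.55 to -0.92 and from -1.62 to -0.65 with 1 array left out, Sostdc1 1460250_at from -0.43 to -0.23 and from -0.52 to -0.07, Bmp7 1418910_at from -0.55 to -0.30 and from -0.51 to -0.26, and Bmp7 1432410_a_at from -0.36 to -0.16 and from -0.24 to -0.20. With all arrays the lower ends came with the floor. Other filters, 1 probe set per gene, no intensity trend and the fits without the block or with the finite prior leave the difference itself unchanged. Under those the sign could not move, and only the call could. The 10 dim member probe sets limit what can be said of Bmp2, Grem1, Nog and Bambi.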
